A study of Citrus unshiu with 2 samples.

Results

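The regions described here are stretches of the Citrus unshiu (satsuma mandarin) genome whose CHG methylation differed between a shoot library from trees under light drought and one from normally watered trees, and which lie in an exon or an intron but in no promoter. They were taken from the authors' deposited table of CHG differences, once each by position, by the gene features that table assigns to them, and were thus selected on the measured CHG difference between the libraries. This gave 1070 of the 3250 CHG regions, in 813 genes. Of these, 500 lay in exons only, 194 in introns only and 294 in both, and 82 also touched a UTR or the downstream flank. Their differences are therefore a description and were not tested.

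The study asked how DNA methylation changed in citrus trees in which mild water deficit was used to induce flowering branches. Shoots, which the labels also call mature stems, were taken after a light drought treatment of 75 days with soil moisture allowed to fall to around 15%, or from trees kept under normal water. For each treatment 20 trees were assigned in a rain-proof tunnel, and the sources used here do not say how many of them went into a library. There was 1 bisulfite library per treatment, so no difference below has a replicate check. The files hold no read counts and no expression values, so the depth behind each level is unknown and the tissue label was not checked against marker genes.

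Bisulfite sequencing reads unmethylated cytosines as thymine. CHG sites, where H is any base but G, are kept methylated in plants by chromomethylases that bind methylated histone H3 lysine 9, the mark of silent chromatin, and the histone methyltransferases bind CHG methylation in turn. CHG methylation is therefore typical of transposons, while many active genes carry CG methylation in the gene body with little CHG. In Arabidopsis the histone demethylase IBM1 keeps CHG methylation out of such gene bodies, and introns that hold transposon sequence can carry CHG methylation inside an otherwise active gene.

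More of the regions were higher than lower under light drought. The authors' deposited table gives a higher level for 652 of the 1070 and a lower one for 418, that is 60.9% higher, beside 61.6% of all CHG regions. In exons only, 304 were higher and 196 lower (60.8% higher). In introns only, 105 were higher and 89 lower (54.1% higher). In regions over both exon and intron, 188 were higher and 106 lower (63.9% higher). The exon share lies near that of all CHG regions. The intron share is lower, and 194 regions give it a 95% Wilson interval of 47.1 to 61.0%. The interval covers counting error only and treats the regions as independent. Of the intron-only regions, 47 lie in 21 genes that hold more than 1 of them. The share of all CHG regions also includes the intronic ones, and the difference was not tested.

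Regions in introns, alone or together with an exon, differed by more points than those in exons only. The median size of the difference, in either direction, was 20.7 points (quartiles 15.3 and 29.3) in introns only and 16.7 points (quartiles 11.4 and 23.4) in exons only, against 20.55 points in regions over both features and 17.3 points over all CHG regions. Higher regions had a median of 20.6 points in introns and 16.8 points in exons, and lower ones of -21.2 and -16.6 points. A difference of at least 20 points was reached by 103 of the 194 intronic regions (53.1%) and by 184 of the 500 exonic ones (36.8%), and by 152 of the 294 over both features (51.7%), beside 38.4% of all CHG regions. The extreme values had another order. The intronic regions lay between -47.1 and 46.5 points, exonic regions between -47.5 and 78.3 points, and regions over both between -75.3 and 65.2 points.

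**Figure D1:**
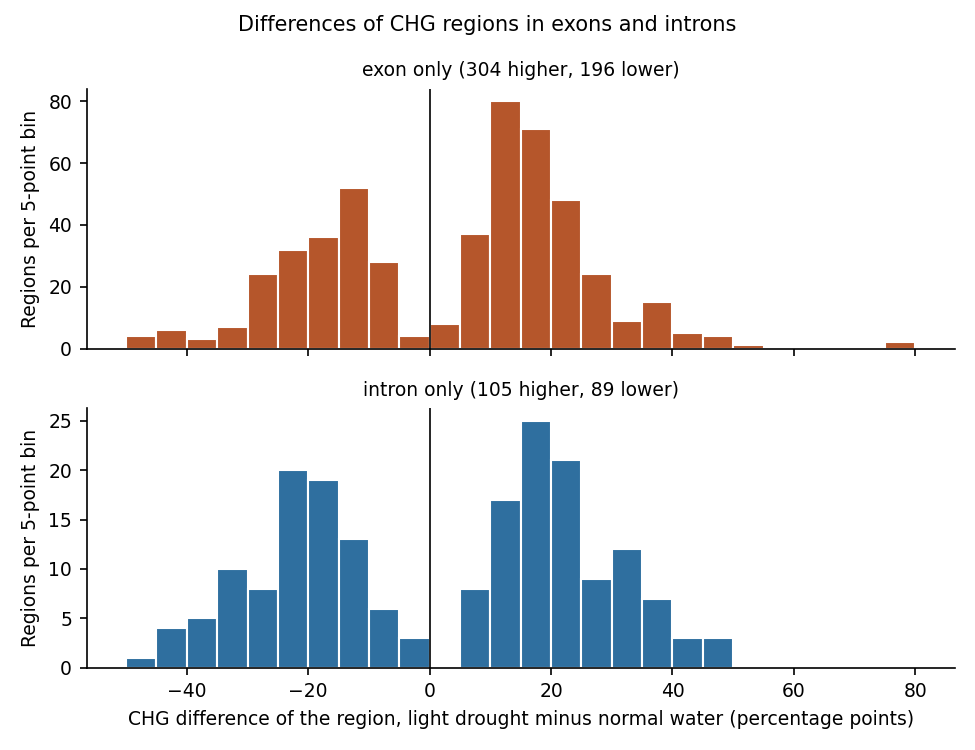
Number of CHG regions per bin of 5 points of the difference in level, as the light drought level minus the normal water level in percentage points, for the 500 exon-only regions (top) and the 194 intron-only regions (bottom). Few regions lie near 0, and the median size is 16.7 points in exons and 20.7 points in introns.

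The regions were short and of similar length in both classes. Exon-only regions had a median length of 99 bp (quartiles 72 and 130, range 21 to 307 bp) and intron-only regions of 104 bp (quartiles 77.25 and 139, range 29 to 305 bp). Regions over both features were longer, with a median of 121.5 bp. The median number of CHG cytosines was 10 in both single-feature classes, and 10 is also the fewest that any CHG region holds. Exactly 10 cytosines were counted in 68.6% of the intronic and 59.2% of the exonic regions. The cytosines lay closer in exons, with a median of 8.70 bp of region per CHG cytosine against 9.52 bp in introns. Among regions of exactly 10 cytosines, the median size of the difference was 17.9 points over 296 exonic and 20.6 points over 133 intronic regions, so the exon and intron classes kept their order at equal cytosine number.

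The genes hit in exons and those hit in introns differed in their methylation in both libraries. The 406 genes with an exon-only region had a median exon CHG level of 14.3% under normal water and 16.7% under light drought. The 168 genes with an intron-only region had a median exon CHG level of 4.60% and 4.51%, while their introns stood at 12.5% and 14.7%. Over all 29073 genes the median exon CHG level was 0.32% and 0.41%. CHG levels of the hit feature are partly fixed by the choice of regions, since a gene without CHG methylation in both libraries cannot hold such a region. Of the genes, 16 had a region of each kind and are counted on both sides.

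CG methylation also differed between the classes. The genes hit in introns had median CG levels of 81.55% in introns and 70.6% in exons under normal water, and of 81.35% and 70.7% under light drought. The genes hit in exons had a median exon CG level of 48.9% under normal water and 53.0% under light drought. The quartiles over genes were wide, from 44.1 to 87.6% for the exons of intron-hit genes and from 19.0 to 81.3% for those of exon-hit genes under normal water, and they overlap. The median exon CG level over all genes was 28.2% under normal water. An intronic region needs an intron, while 134 of the 406 exon-hit genes were listed at 0 for intron CG in both libraries. Among genes with CG above 0 in exons and introns of both libraries, the gap was smaller. There the median exon CG level, averaged over both libraries, was 73.0% in 147 genes hit in introns and not in exons alone, 59.8% in 238 hit in exons and not in introns alone, and 60.9% over 13916 genes.

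CHH levels were low in both classes. The exons of exon-hit genes had a median CHH level of 1.88% under normal water and 2.64% under light drought. In intron-hit genes the exon medians were 0.62 and 0.72%, and the intron medians 2.35 and 2.84%. All of these were above the medians over all genes, which were 0.26 and 0.34% in exons.

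**Figure D2:**
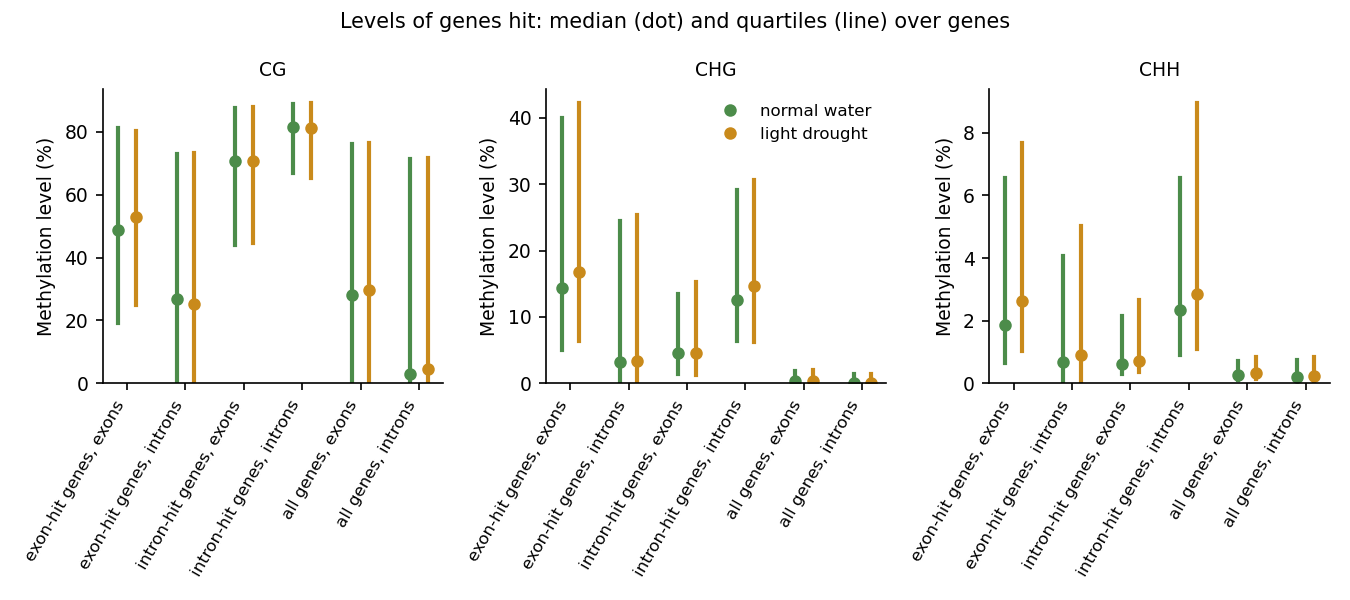
Methylation level, in percent, of the exons and introns of genes hit by an exon-only region (406), of genes hit by an intron-only region (168) and of all 29073 genes, in the CG, CHG and CHH contexts. Dots are medians and lines span the quartiles over genes in each library, and the introns of intron-hit genes stand at a CG median of 81.55% under normal water.

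Inside most genes hit in introns, the introns had more CHG and CHH methylation than the exons. The comparison was limited to genes with CG levels above 0 in exons and introns of both libraries, because genes without an intron are listed at 0 too. Among 147 such genes hit in introns and not in exons alone, 121 had a higher CHG level in the introns than in the exons (82.3%), averaged over both libraries, with medians of 12.5% and 3.89%. The CHH level was higher in the introns of 120 of them (81.6%) and the CG level in those of 98 (66.7%). Among 238 genes hit in exons and not in introns alone, the CHG level was higher in the introns of 105 (44.1%), with medians of 12.9% in exons and 10.6% in introns. Over the 13916 genes that met the same condition, 55.9% had the higher CHG level in introns, 64.1% the higher CHH level and 61.6% the higher CG level. The shares of intron-hit genes lie further above these in CHG and CHH than in CG. These genes were chosen for a CHG difference inside an intron, so CHG methylation of their introns is partly built in. Over the 13916 genes the CHG medians were only 0.70% in exons and 1.05% in introns. The shares therefore only describe the genes.

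Most genes hit carried partial CHG methylation. The exon CHG level, averaged over both libraries, was above 5 and up to 60% in 257 of the 406 exon-hit genes (63.3%), and 8.28% of all genes lay in that range. The intron CHG level was in that range in 122 of the 168 intron-hit genes (72.6%), against 8.59% of all genes. In both libraries 22.6% of all genes stood at 0 for exon CHG and 49.3% for intron CHG. The latter include genes without an intron, which could not be hit there. Heavily methylated features, above 60%, were found in 59 exon-hit genes (14.5%), beside 11.3% of all genes. The regions were chosen for differing in CHG, so these shares only describe the genes.

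**Figure D3:**
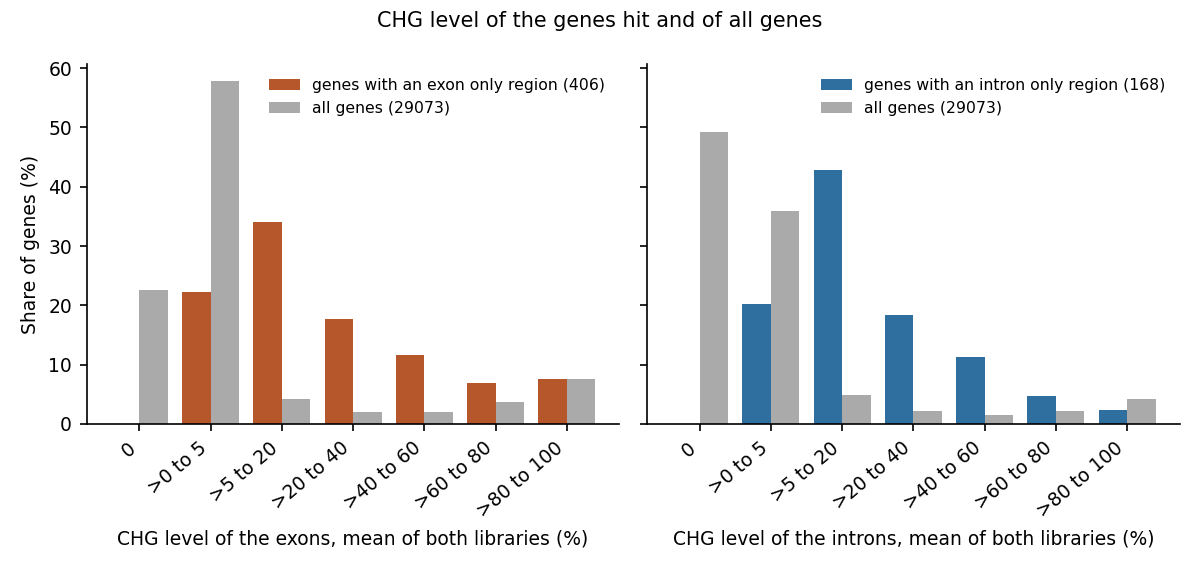
Share of genes, in percent, by the CHG level of their exons (left) or introns (right), averaged over both libraries, for genes hit by an exon-only or intron-only region (coloured) and for all genes (grey). The genes hit peak above 5 and up to 20%, with 34.0% of exon-hit and 42.9% of intron-hit genes, while all genes peak at or below 5%. For introns, 49.3% of all genes are listed at 0, and these include genes without an intron.

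Direction varied with the CHG level of the gene's exons. In genes with an average exon level above 20 and up to 40%, 68 of 101 exon-only regions were higher under light drought (67.3%). In genes above 80%, 15 of 36 were higher (41.7%), and the median size there was 11.1 points against 17.7 points. Of the intron-only regions, 25 of 41 were higher in genes with an average intron level above 20 and up to 40%, and 2 of 4 in genes above 80%. At levels above 0 and up to 5%, 15 of 36 intron-only and 64 of 101 exon-only regions were higher. These groups are small and were not tested.

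The level of the whole feature mostly differed in the direction of the region and by fewer points. The CHG level of a gene's exons differed in the direction of the exon-only region in 421 of 500 cases (84.2%), and that of the introns in the direction of the intron-only region in 160 of 194 (82.5%). For higher exonic regions the median exon CHG level was 13.05% under normal water and 17.5% under light drought, with a median difference of 3.71 points. For lower ones it was 21.6% and 16.8%, with a median difference of -2.65 points. Higher intronic regions went with a median intron difference of 3.06 points and lower ones with -1.73 points. Over all genes the median CHG difference was 0 in exons and in introns. These levels come from the same libraries as the regions and cover the stretch of the region itself, which was chosen for its CHG difference. The shared direction and the smaller size are therefore partly fixed in advance and only describe the genes. Genes with several regions are counted once per region.

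**Figure D4:**
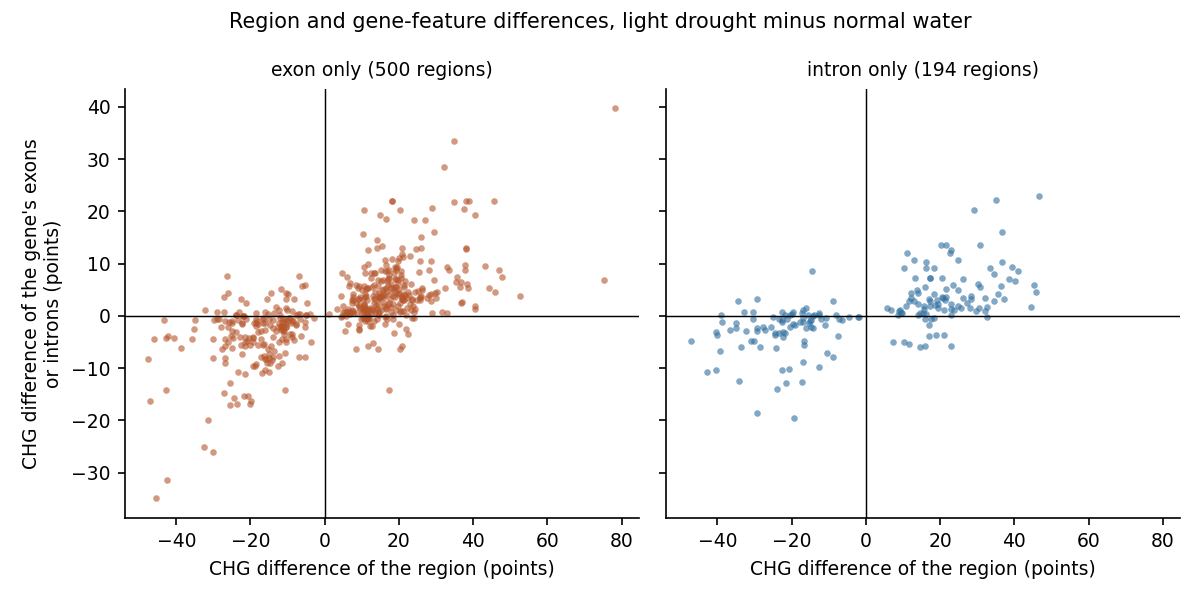
CHG difference of each region (horizontal axis) and of the exons or introns of its gene (vertical axis), both in percentage points with the normal water level subtracted, for 500 exon-only and 194 intron-only regions. Most points have the same sign on both axes, 421 in exons and 160 in introns, and the gene-level difference is smaller than that of the region in 483 and 192 cases.

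CG and CHH followed the CHG direction unevenly. For higher exonic regions the exon CG level was higher under light drought in 229 of 304 cases (75.3%), with a median difference of 3.01 points. For lower exonic regions it was higher in 92 of 196 (46.9%) and lower in 101, with a median of -0.19 points. Over all genes the exon CG level was higher in 46.7%, a share that counts genes without a difference as not higher. There, 13572 genes were higher and 10457 lower, and 4882 stood at 0 in both libraries. In introns the median CG differences were 0.68 points for higher and -0.10 points for lower regions, close to 0 in both. CHH levels were higher in most genes whichever way the CHG region went. The exon CHH level was higher in 264 of 304 cases with a higher exonic region (86.8%). With a lower one it was higher in 112 of 196 (57.1%) and lower in 83. Of all genes, 55.9% had a higher exon CHH level under light drought, again with genes without a difference counted as not higher. In that comparison 16258 genes were higher and 9185 lower, and 3268 stood at 0 in both libraries. The intron CHH level was higher in 96 of 105 cases with a higher intronic region and in 56 of 89 with a lower one, and over all genes, many of them listed at 0 for introns, in 38.1%.

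Overlap with CG regions was found more in exons than in introns. The authors' deposited tables have a CG region that shares at least 1 bp with 50 of the 500 exon-only regions (10%) and with 4 of the 194 intron-only ones (2.06%), beside 8.18% of all CHG regions. Of 51 such exonic pairs 50 agreed in sign, 38 being higher and 12 lower in CG and CHG alike. A CHH region overlapped 30 exonic (6%) and 20 intronic regions (10.3%), beside 13.7% of all CHG regions. The CHH pairs had the same direction in 31 of 35 exonic and 20 of 23 intronic cases. Over all CHG regions 99.3% of the CG pairs and 83.5% of the CHH pairs did, so the agreement in exons and introns was near the general share.

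Some genes held several regions. Of the 806 genes counted through regions that touch 1 gene, 639 held 1 region and 167 held more. In 64 of these 167 all regions were higher under light drought, in 35 all were lower, and in 68 the directions were mixed. Neighbouring regions of a gene shared the direction in 123 of 163 cases (75.5%) where at most 500 bp lay between them, in 37 of 63 (58.7%) over 500 and up to 2000 bp, and in 16 of 34 (47.1%) beyond that. In the 16 genes with regions of each kind, 26 of 35 pairings of an exon-only with an intron-only region had the same direction, 22 of them both higher. Of the 23 genes with at least 4 regions, 9 had only higher regions, 14 had mixed directions and 0 had only lower ones. The share of higher regions was 60.9% over all 1070. No share of agreeing directions expected from it was computed, and these counts were not tested.

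**Figure D5:**
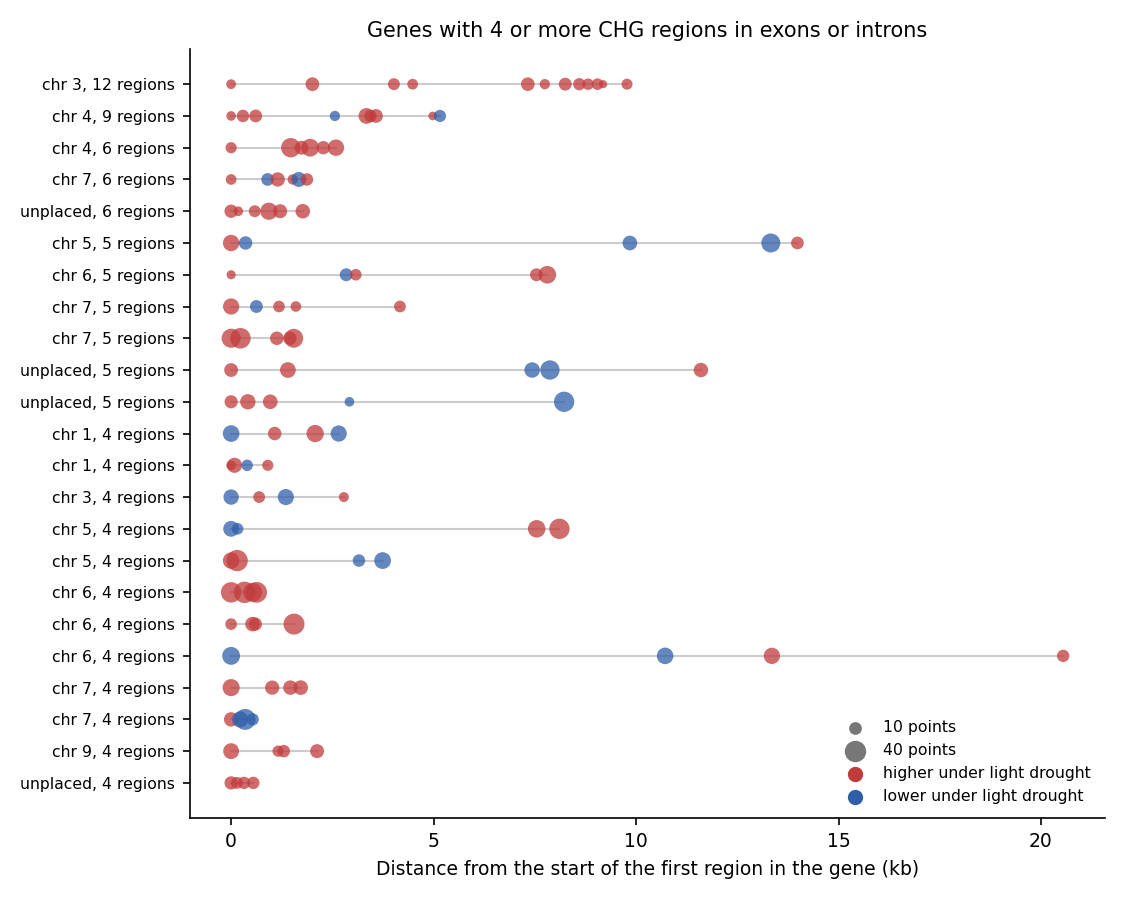
Position of each region, in kb from the start of the first one, in the 23 genes with at least 4 CHG regions in exons or introns. Red dots are higher and blue dots lower under light drought, the dot area grows with the size of the difference, and the gene in the top row has 12 regions that are all higher.

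The gene with most regions was Cs3g02400 on chromosome 3. The files give identifiers without gene names, and 0 of the 813 identifiers matched the gene table used here, so no function is stated for any gene. Its 12 regions spread over 9882 bp, from position 2110489 to 2120370. The authors' deposited table gives a higher level under light drought for all of them, with differences from 4.72 to 18.8 points and a median of 12.3 points. Of these regions 5 lay in exons, 3 in introns and 4 over both. Its gene-body CHG level was 12.5% under normal water and 19.8% under light drought, and its CG level 74.0 and 77.3%. The CHG level was 7.30 and 15.4% in the exons and 24.1 and 33.3% in the introns. Its promoter was listed at 0 for CHG and CHH in both libraries, and for CG at 16.67% under normal water and 0 under light drought.

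Of the next 5 genes by number of regions, some were uniform in direction and some mixed. A gene on chromosome 4 had 9 regions, of which 7 were higher and 2 lower, and its gene-body CHG level was 29.1 and 31.8%. A further gene on chromosome 4 had 6 regions, all higher by 11.4 to 40.3 points in the authors' deposited table, with gene-body CG levels of 92.6 and 93.7% and CHG levels of 20.7 and 27.5%. A gene of the unplaced sequence had 6 regions, all higher, with CG at 93.0% in both libraries and CHG at 4.95 and 7.99%. A gene on chromosome 7 had 6 exonic regions, 4 higher and 2 lower. A gene on chromosome 5 had 5 regions over 14083 bp, 2 higher and 3 lower, and its gene-body CHG level hardly differed, at 11.0 and 10.6%.

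The largest increase lay in an exon of Cs7g28570 on chromosome 7. The region at 29092730 to 29092822 holds 10 CHG cytosines and is higher by 78.3 points in the authors' deposited table, with a p-value of 1.08e-05 and a corrected p of 1. The exon CHG level of the gene was 18.5% under normal water and 58.2% under light drought. Its exon CG level was also higher, at 78.5% against 49.1%, while the promoter stood at 0.19 and 0.2% for CHG. No CG or CHH region overlapped it. The next largest exonic increase, on chromosome 5 at 8543211 to 8543257, was 75.2 points in the authors' deposited table. There the exon CG level was 67.6 and 65.2% and the exon CHG level 4.83 and 11.7%.

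In the opposite direction, the region of Cs9g07170 on chromosome 9 at 4480403 to 4480587 was among the 4 largest exonic decreases and had a small corrected p-value. It has 19 CHG cytosines and a difference of -45.5 points in the authors' deposited table, with a corrected p of 0.0202. The exon levels of the gene were lower under light drought in all contexts, with CHG at 39.4% against 74.3%, CG at 33.7% against 54.4% and CHH at 8.63% against 18.0%. The authors' deposited table for CHH has an overlapping region with -26.2 points. The exonic region of Cs3g27750 on chromosome 3, from 28617987 to 28618125, had a difference of -42.4 points in the authors' deposited table, and a CG region overlapping it one of -47.1 points. Its exon levels under light drought were 15.5% against 46.9% in CHG and 33.0% against 64.1% in CG, while CHH stood at 7.21% against 8.10%. The largest exonic decrease, on chromosome 8 at 14401531 to 14401625, was -47.5 points in the authors' deposited table, and the gene-body CHG level there was 12.4% against 16.3%.

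Among intronic regions, the largest increase, on chromosome 7 at 1843721 to 1843787, was 46.5 points in the authors' deposited table. The intron CHG level of that gene was 7.03% under normal water and 29.99% under light drought, its exon CHG level 4.58 and 23.6%, and its intron CG level 95.6 and 99.6%. The largest intronic decrease, on chromosome 9 at 13131889 to 13132087, was -47.1 points in the authors' deposited table, in a gene with gene-body CG levels of 79.5 and 76.85%. Also on chromosome 9, an intronic region at 6583402 to 6583521 had a difference of -42.8 points in the authors' deposited table and was 1 of 3 regions of its gene, all lower. There the intron CHG level was 16.0% under normal water and 5.28% under light drought, the exon CHG level 10.6 and 0.4%, and the exon CG level 82.0 and 82.2%. The gene with an intronic region whose gene-body CHG level was lower by the most points lay on chromosome 5, with 42.3% under light drought against 63.6%, and its intron CG level was also lower, at 50.95% against 68.75%. Its region at 18542846 to 18542959 has -19.4 points in the authors' deposited table.

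Whole gene bodies seldom differed much. By a fixed size of 20 points, the gene-body CHG level was higher under light drought in 7 of the 813 genes and lower in 5 (0.861 and 0.615%), beside 0.616 and 0.557% of all genes. For exon levels in CHG the counts were 12 higher and 7 lower, beside 0.709 and 0.729% of all genes. The genes hit in introns had 0 gene bodies with a CG difference of that size in either direction, beside 1.19% of all genes higher and 0.774% lower. The genes hit in exons had 8 higher and 2 lower. The gene-body level that was higher by the most points was that of a gene of the unplaced sequence with an exonic region at 44794352 to 44794411. Its gene-body CHG level was 1.39% under normal water and 34.7% under light drought, while its gene-body CG level was only 0 and 9.93%. A gene on chromosome 3 with an exonic region at 15928432 to 15928528 stood at 92.5 and 67.4%. These counts carry no test.

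Corrected p-values were large for nearly all of these regions. In the authors' deposited table it was under 0.05 in 8 of the 1070 regions, 4 in exons only and 4 over exon and intron, with 0 in introns only, beside 0.523% of all CHG regions. Of these, 6 were higher and 2 lower under light drought. Those 4 exonic regions held 18 to 27 cytosines. The other exonic decrease among them, on chromosome 1 at 19169756 to 19169971, was -42.8 points in the authors' deposited table, where its corrected p is 0.00655. Adjoining regions of a gene on chromosome 7, at 14410435 to 14410565 in an exon and at 14410678 to 14410943 over exon and intron, were higher by 19.65 and 27.7 points in the authors' deposited table, with corrected p-values of 0.0324 and 0.00562. The others over exon and intron, at 9801399 to 9801556 and 14814922 to 14815113 of chromosome 7 and at 52278260 to 52278350 of the unplaced sequence, were higher by 20.3, 33.2 and 53.2 points in the authors' deposited table. The remaining exonic one, in the unplaced sequence from 4611892 to 4612067, was higher by 17.6 points there, in the gene with 6 higher regions and CG at 93.0%. The exonic region with most cytosines, 32 on chromosome 7 at 17610287 to 17610532, differed by 10.9 points. The intronic one, 29 on the same chromosome at 23020627 to 23020797, differed by -2.23 points. The authors' deposited table lists a corrected p of 1 for either. The highest uncorrected p among the regions was 0.0488, and regions above that were not analysed here.

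The share of higher regions varied over chromosomes. Of the exon-only regions, 44 of 54 were higher on chromosome 4 (81.5%) and 15 of 35 on chromosome 8 (42.9%). The intron-only regions ranged from 5 of 13 higher on chromosome 8 (38.5%) to 27 of 41 on the unplaced sequence (65.9%). On chromosome 4, 7 of 15 intron-only regions were higher, and the gene with 9 regions and the one with 6 supplied 10 of the exonic regions there.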

How the data were processed

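Per the submitters' processing notes, the tools were bedtools 2.26.0, Bismark 0.20.1 and SAMtools 1.4, with no role stated. Neither the build nor the region caller nor a coverage minimum is given in the sources used here. What the authors deposited was, per the file headers, methylation levels per gene feature in percent (1 table per library, 29073 genes in both) and region tables with a p-value, a corrected p-value, a number of cytosines and a signed difference in points, taken here as a score. A total of 6 per-group level columns went unused, since no label of either library matches them. The sign of a difference follows the name of the tables, drought level first, and the gene tables had the same sign in 84.2% of exonic and 82.5% of intronic regions. Starts are printed counted from 1. The p-values of all 1918 CHG regions with 10 cytosines fell on the steps of an exact rank-sum test of 10 against 10 values (relative tolerance 0.001). The smallest step of that test is 1.08e-05. Rank-sum p-values of this kind compare cytosines, not trees. The lowest corrected p among those regions was 0.325. The corrected p does not follow from the listed p alone. The same listed p of 1.08e-05 goes with a corrected p of 0.663 in an intron-only region and 0.798 in an exon-only one.

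A region named exon only or intron only has no other feature in any transcript. The depth per level is unknown, no interval for levels or floor was computed, and with 1 library per group no test was made. Regions were paired between contexts when sharing at least 1 bp. Genes were counted as differing by 20 points. The regions and lists were chosen with earlier results of these data known. The rule for naming took the 4 largest differences per direction in exon-only and in intron-only regions, all corrected p under 0.05, the most cytosines, the 3 largest gene-body differences per direction and class, and the 6 genes with most regions. Of the largest differences and gene-body differences, the text prints the leading ones. The files do not pair identifiers with names, so few identifiers are printed. The software was matplotlib 3.10.9, pandas 2.3.3, numpy 2.4.6 and Python 3.11.15. Tested on simulated data, all 200 overlaps planted in 3000 regions were found, as were all 200 genes planted in 29073 by the size rule, with 0 others. The planted genes were set past 20 points without noise, and the noise of the others was far below that. This result was therefore fixed by construction. It checks the code only and does not measure errors of the size rule on these libraries.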

Additional observations from a re-analysis of the deposited data

How the results depend on the processing

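No paired analysis was possible because a treatment has a single library, which also cannot be left out. A share counted as moved when it left its 95% Wilson interval, other values when they changed by more than 1.5 times. Of 77 recalculated values of 16 results, 59 did not move, 18 moved and 0 reversed. Only shares, by crossing 50%, and signed differences could reverse. The other values cannot change sign by construction. With a corrected p under 0.05, 6 regions were higher and 2 lower, and the 4 exon-only ones were 50% higher with a median size of 31.2 points and a median length of 180.5 bp; no intron-only region was left. With differences of at least 20 points 289 were higher and 182 lower, and the exonic median size was 25.8 points. With at least 15 cytosines 90 were higher and 43 lower, and median lengths were 156 bp in exons and 171 bp in introns. Each of these restrictions keeps fewer regions by construction. Gene bodies with a CHG difference of at least 10 points numbered 40 higher and 18 lower, and of at least 30 points 2 and 1. By the feature hit 12 genes were higher by 20 points, against 7 of 813 by gene body. The median difference of genes with only lower regions was -2.80 points over 208 feature levels, against -1.34 points over 293 gene bodies. By the feature hit only genes with an exon-only or intron-only region were counted, so the genes changed as well as the measure. The cause was not tested. The setting of exactly 10 cytosines was chosen after the data were seen and moved none of the 6 shares, sizes and lengths. Counts of all regions under a looser class definition do not change by construction and were not recalculated.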

Other observations

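The other CHG regions give the setting for those in genes. Regions that name a promoter were higher under light drought in 293 of 451 cases (65.0%) with a median size of 17.9 points, and regions outside gene features in 788 of 1301 (60.6%) with 16.1 points. The p-value stood at the smallest step of the exact rank-sum test in 37 of the 296 exon-only regions with 10 cytosines (12.5%) and in 18 of the 133 intron-only ones (13.5%). Over all 1918 CHG regions with 10 cytosines the share was 7.66%, and over the 790 outside gene features 4.18%. Of the 37 exonic ones 26 were higher and 11 lower, and of the 18 intronic ones 12 and 6. These are values of the listed regions and were not tested.

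Regions annotated over exon and intron came in part from genes with several transcripts. Of the 294, 195 were assigned to 1 transcript and 99 to more, and the shares higher under light drought were 63.1% and 65.7%. Several transcripts were also assigned to 67 of the 194 intron-only and 89 of the 500 exon-only regions.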
